A study of Homo sapiens with 6 samples.

Results

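CSMD1, CSMD2 and CSMD3 form the CUB and Sushi multiple domains family, and their mRNA levels were described here in irradiated HCT116 cells with and without a guide against caspase-activated DNase (CAD). The members were taken by gene symbol, and all 3 were found among the 20020 genes of the table of counts. They were chosen because CSMD3 differed between these same libraries, so the difference of each member between the groups is given as a description, with no p-value. Whether a member passed the thresholds of a fit over all genes is stated once, beside the share of all genes that did, and supports nothing. HCT116, an established line of human colorectal carcinoma cells, is epithelial. RNA-seq was made from 6 libraries, all from HCT116 cells that had been irradiated (IR), of which 3 were sgVec+IR and 3 were CAD-KO2+IR. CAD-KO2 cells carry a CRISPR guide against CAD in the lentiCRISPRv2 plasmid and sgVec cells carry the vector control, both as stable lines. No unirradiated library was analysed here, so each comparison is between genotypes after IR. Whether the knockout line was 1 clone or a mixed population, and whether the libraries of a group came from separate cultures, is not given in the sources used here, so the spread between libraries may be technical. The sample labels list the molecule as genomic DNA, whereas their protocol describes libraries made from RNA.

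CSMD proteins are very large membrane proteins whose extracellular part is built from CUB domains alternating with Sushi domains, followed by a long run of Sushi domains. CUB domains occur in secreted proteases and cell surface receptors. Sushi domains, also called complement control protein domains, are the building block of many regulators of the complement cascade, and CSMD1 is known as a complement inhibitor. CSMD genes are mostly expressed in brain, where CSMD3 has been linked to dendrite development, and CSMD3 is among the genes often found mutated in large tumour sequencing surveys.

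The guide is shown because it defines the genotype that separates the groups. It was compared with the annotated transcripts of the family in the GRCh38 genome, with the adjacent NGG motif that Cas9 requires (the PAM) in capitals in the target site:
CAD-KO2 guide, 5′ to 3′: gtgcctgtacgaggatggca
DFFB site with its PAM: gtgcctgtacgaggatggcaCGG
The guide matched exon 2 of DFFB, the gene that encodes CAD, on the forward strand at chr1:3858741-3858763 with 0 mismatches. Among 19823 genes, DFFB was the only 1 matched with 0 mismatches. The closest PAM-bearing stretch of annotated transcript sequence had 7 mismatches in CSMD1 and 7 in CSMD3, and 17.9% of genes had a match as close or closer. In CSMD2 the closest had 8 mismatches, which 53.2% of genes equalled or bettered. Only ungapped matches within spliced transcripts were counted, and a match could cross a junction between exons. Introns, which make up most of each CSMD gene, were not searched.

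DFFB (ENSG00000169598.17) had 357, 335 and 297 counts in sgVec+IR replicates 1 to 3, against 185, 192 and 217 with the guide. Counts scaled to CPM (per 1e+06 counts of a library) on the TMM-adjusted library size averaged 21.9 ± 0.995 (SD, n = 3) in sgVec+IR and 10.8 ± 1.32 (SD, n = 3) in CAD-KO2+IR. All 3 CAD-KO2+IR libraries lay below all 3 sgVec+IR libraries, and the CAD-KO2+IR mean was 49.5% of the sgVec+IR mean. The log2 fold change (CAD-KO2+IR over sgVec+IR, as throughout) was −1.02 with a standard error (SE) of 0.193, and its adjusted p in edgeR's quasi-likelihood test was 0.550. DESeq2 called it lower at the same thresholds. Counts per gene do not read the edit itself.

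The libraries held from 14032994 to 19574144 counts. One library of each group stood apart from the others. Across tested genes, log2 CPM of sgVec+IR replicate 3 correlated with the other libraries at r from 0.886 to 0.927 and this library had 7561 genes at 0 counts, against 4577 to 5232 in the other 5. CAD-KO2+IR replicate 2 correlated with replicates 1 and 3 of its group at 0.969 and 0.975, which correlated with each other at 0.993. Values are therefore also given without these 2 libraries where a result rests on them.

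CSMD3 was the member with a large difference between the groups. CSMD3 (ENSG00000164796.18) lies on the reverse strand of chromosome 8, at chr8:112222928-113437099 in GRCh38, with 10 annotated transcripts over 1214 kb. It had 702, 680 and 975 counts in sgVec+IR replicates 1 to 3 and 12, 20 and 14 counts in CAD-KO2+IR. These are 42.9, 46.5 and 68.8 CPM in sgVec+IR and 0.650, 1.05 and 0.797 CPM in CAD-KO2+IR. Every sgVec+IR library was far above every CAD-KO2+IR library, with sgVec+IR replicate 3 the highest and the 3 CAD-KO2+IR libraries close together. The mean was 52.7 ± 13.99 CPM (SD, n = 3) in sgVec+IR and 0.834 ± 0.205 CPM (SD, n = 3) in CAD-KO2+IR, which is 1.58% of the control mean. The log2 fold change was −5.96 (SE 0.352).

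In CAD-KO2+IR a residual CSMD3 signal was present in each library, 46 counts in all, and it varied between libraries about as counting alone would have it vary. Its coefficient of variation was 24.5% in CAD-KO2+IR, where the mean counts per library would give 25.5% by counting error. In sgVec+IR it was 26.5% over 2357 summed counts, against 3.57% from counting error. The spread in the control group was thus several times that of counting. It came largely from sgVec+IR replicate 3, the library that stood apart, at 68.8 CPM against 42.9 and 46.5 CPM in replicates 1 and 2. Without the 2 libraries that stood apart, the mean was 44.7 CPM in sgVec+IR and 0.724 CPM in CAD-KO2+IR and the log2 fold change was −5.93 (SE 0.202). Over the 11 alternative settings of the fit it ran from −6.18 to −5.73.

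CSMD2 was low in both groups. CSMD2 (ENSG00000121904.19) lies on the reverse strand at chr1:33513999-34165842, with 10 annotated transcripts over 652 kb. It had 30, 17 and 31 counts in sgVec+IR and 15, 21 and 12 in CAD-KO2+IR, so the raw counts of the groups overlapped. Scaled to library size, these became 1.83, 1.16 and 2.19 CPM in sgVec+IR and 0.813, 1.11 and 0.683 CPM in CAD-KO2+IR. The CPM of the groups did not overlap, but the highest CAD-KO2+IR value and the lowest sgVec+IR value differed by only 4.86% of the latter. The means were 1.73 ± 0.520 CPM (SD, n = 3) in sgVec+IR and 0.868 ± 0.217 CPM (SD, n = 3) in CAD-KO2+IR, or 50.2% of the control mean. The log2 fold change was −0.98 with an SE of 0.457, it was −1.01 without the 2 libraries that stood apart, and over the 11 settings it ran from −1.20 to −0.79. Counting error alone would give coefficients of variation of 19.6% in sgVec+IR and 25.0% in CAD-KO2+IR, and 30.1% and 25.0% were measured.

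CSMD1 was not detected. CSMD1 (ENSG00000183117.20) lies on the reverse strand at chr8:2935353-4994972 and, with 18 annotated transcripts over 2060 kb, is the longest of the 3. It had 0 counts in all 6 libraries. Taking 3 counts over the summed total of a group as the limit that a count of 0 allows, its level could be up to 0.0670 CPM in sgVec+IR or 0.0540 CPM in the knockout. It entered no test. These limits cover counting error only.

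Of the 2 members that passed the filter on low counts, 1, CSMD3, was called by edgeR (adjusted p under 0.05, 1.5-fold or more), where 4 of all 12925 genes tested, 0.0309%, were called in either direction, 0.0232% as lower and 0.00774% as higher in CAD-KO2+IR. By DESeq2 the same member was called, against 0.364% of all genes tested. Both tested members had every CAD-KO2+IR library below every sgVec+IR library in CPM, an arrangement that 5.01% of all tested genes showed, with 5.23% showing the reverse. The family was picked for this contrast, so nothing is read from these shares. edgeR's number of called genes was small and unsteady: it was 0 with the replicate number as a block (62 genes higher and 82 lower at an unadjusted p under 0.05 and the same fold) and, with both libraries that stood apart left out, 3.37% of 13059 genes (2.3% lower and 1.06% higher). With any 1 CAD-KO2+IR library left out edgeR called 0 genes (65 to 82 higher and 90 to 123 lower at an unadjusted p under 0.05 and the same fold). The call of CSMD3 was thus lost there, while its log2 fold change stayed between −6.18 and −5.80.

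Compared per length, the members ranked CSMD3, CSMD2, CSMD1 in sgVec+IR. In RPKM (CPM per kilobase of annotated exon), CSMD3 averaged 2.56 ± 0.680 (SD, n = 3) in sgVec+IR and CSMD2 0.0952 ± 0.0286 (SD, n = 3), while CSMD1 was at 0. In CAD-KO2+IR, CSMD3 averaged 0.0405 ± 0.00995 RPKM and CSMD2 0.0478 ± 0.0120 RPKM (SD, n = 3 each), a difference within their spread. The per-length ratio of CSMD3 to CSMD2 was 20.7, 35.3 and 27.8 in sgVec+IR replicates 1 to 3 and 0.706, 0.841 and 1.03 in CAD-KO2+IR replicates 1 to 3. The 2 members thus stood at like levels in the knockout cells and at very unlike levels in the control cells.

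The makeup of the family's counts followed the same order. CSMD3 gave 95.9% (95% Wilson interval 94.2 to 97.1%), 97.6% (96.1 to 98.5%) and 96.9% (95.7 to 97.8%) of the family's 732, 697 and 1006 counts in sgVec+IR replicates 1 to 3. In CAD-KO2+IR it gave 44.4% (27.6 to 62.7%), 48.8% (34.3 to 63.5%) and 53.8% (35.5 to 71.2%) of 27, 41 and 26 counts. Sequence shared between paralogs could move reads from one member to another only where it is long. Of the distinct stretches of 30 bases in their annotated transcripts, CSMD1 and CSMD3 shared 3, and neither of them shared any with CSMD2.

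Against other tested genes, CSMD3 lay below the median per length in the control cells. Its RPKM in sgVec+IR ranked 9069 of 12913 tested genes with a gene model, with 29.8% of genes lower and a median of 5.96 RPKM over all of them. In CAD-KO2+IR it ranked 12902, with 0.0852% of these tested genes lower and a median of 5.83 RPKM. CSMD2 ranked 12759 in sgVec+IR and 12887 in CAD-KO2+IR, near the bottom of the genes tested in both. These ranks leave out the genes removed by the filter on low counts. By CPM over all 20020 genes, CSMD3 ranked 4596 in sgVec+IR and 12489 in CAD-KO2+IR, and CSMD2 ranked 11839 and 12445. CSMD3 had the second lowest log2 fold change of all tested genes, after TRARG1, and 3 genes lay below −5.

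A change from a plain signal to near none was rare in either direction. Of 8663 genes with at least 10 CPM in every sgVec+IR library, 1, CSMD3, was under 2 CPM in every CAD-KO2+IR library. In the reverse direction 0 genes met the same limits. The limits were chosen after the values of CSMD3 were known. With an upper limit of 3 CPM for the low group there were 2 such genes, CELF2 and CSMD3, and still 0 in reverse, and with at least 5 CPM against under 2 CPM there were 2 in each direction, CSMD3 and DNAH2 lower and DCLK1 and TRHDE higher in CAD-KO2+IR. With under 1 CPM, 0 genes with at least 10 CPM qualified, since CSMD3 had 1.05 CPM in CAD-KO2+IR replicate 2.

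**Figure D1:**
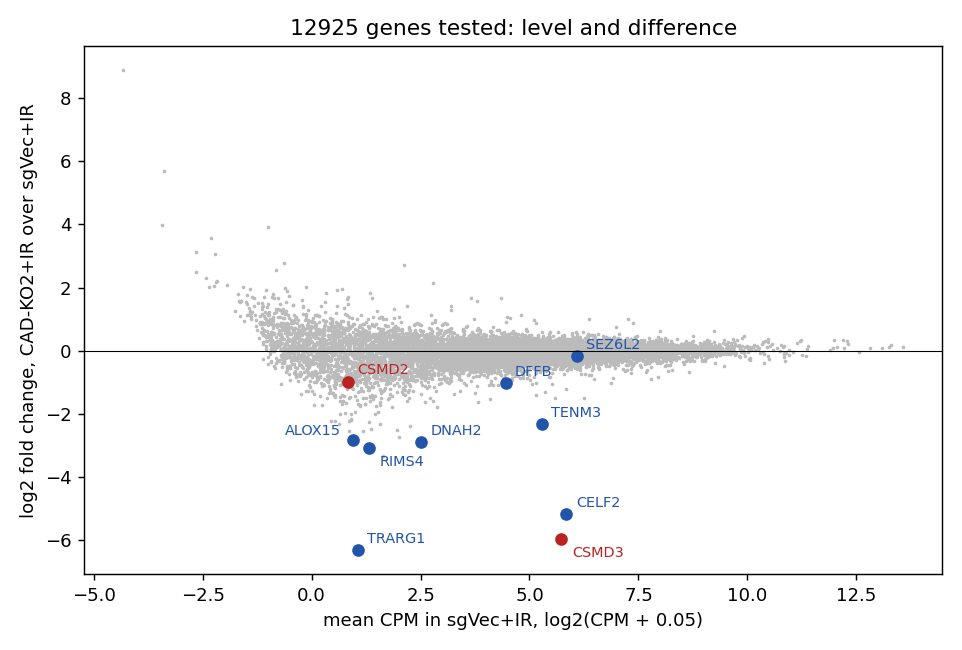
Log2 fold change (CAD-KO2+IR over sgVec+IR, edgeR) against the mean level in sgVec+IR, as log2(CPM + 0.05), for the 12925 genes tested, with the tested members in red and other genes named in the text in blue. CSMD3 and CELF2 lie alone at the lower right, at −5.96 and −5.16, while TRARG1 reaches its low value at a control mean of 2.05 CPM, where the fitted value depends on how counts near 0 are handled.

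The genes whose profile over the 6 libraries was nearest to that of CSMD3 were CELF2, TRARG1, DNAH2, RIMS4 and ALOX15. Nearness was the Euclidean distance between mean-centred log2 CPM (prior count of 2), so both the size and the pattern of the difference count, and these genes were picked from the same contrast. CELF2, an RNA-binding regulator of splicing, was closest at a distance of 0.953, with Pearson's r of 0.997 over the 6 libraries. Next came TRARG1, a protein of insulin-responsive glucose transporter traffic (2.36), DNAH2, a dynein heavy chain of motile cilia (3.87), RIMS4, of the presynaptic RIM family (4.09), and ALOX15, a lipoxygenase that oxidises fatty acids (4.29). The sixth gene was at 4.32, the median gene at 7.20, and CSMD2 ranked 140 at 6.03.

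CELF2 had 691, 689 and 1154 counts in sgVec+IR and 18, 44 and 25 in CAD-KO2+IR. It shared with CSMD3 the highest value in sgVec+IR replicate 3 and, within CAD-KO2+IR, the highest in replicate 2. These are the 2 libraries that stood apart. Across tested genes their deviations from their group means correlated at 0.552, so this pattern is not particular to CELF2 and CSMD3. The mean of CELF2 was 56.9 ± 21.3 CPM (SD, n = 3) in sgVec+IR and 1.57 ± 0.684 CPM (SD, n = 3) in CAD-KO2+IR. TRARG1 had 27, 35 and 30 counts in sgVec+IR and 0, 0 and 1 in CAD-KO2+IR. DNAH2 had 93, 93 and 71 counts against 16, 14 and 12, or 5.69 ± 0.679 CPM against 0.763 ± 0.0944 CPM (SD, n = 3 each). RIMS4 (22, 23 and 62 counts against 1, 1 and 13) and ALOX15 (26, 15 and 43 against 1, 4 and 9) were low in all libraries and were highest in sgVec+IR replicate 3, the library that stood apart. For all 5 genes every CAD-KO2+IR library was below every sgVec+IR library, as for 5.01% of all tested genes. Picking genes by nearness to CSMD3 favours this arrangement, so nothing is read from it. TRARG1 and ALOX15, with at most 1 and 9 counts in a CAD-KO2+IR library, passed the filter on low counts through sgVec+IR. None of the 5 lies on chromosome 8 with CSMD3: CELF2 is on chromosome 10, RIMS4 on 20, and TRARG1, DNAH2 and ALOX15 on 17.

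**Figure D2:**
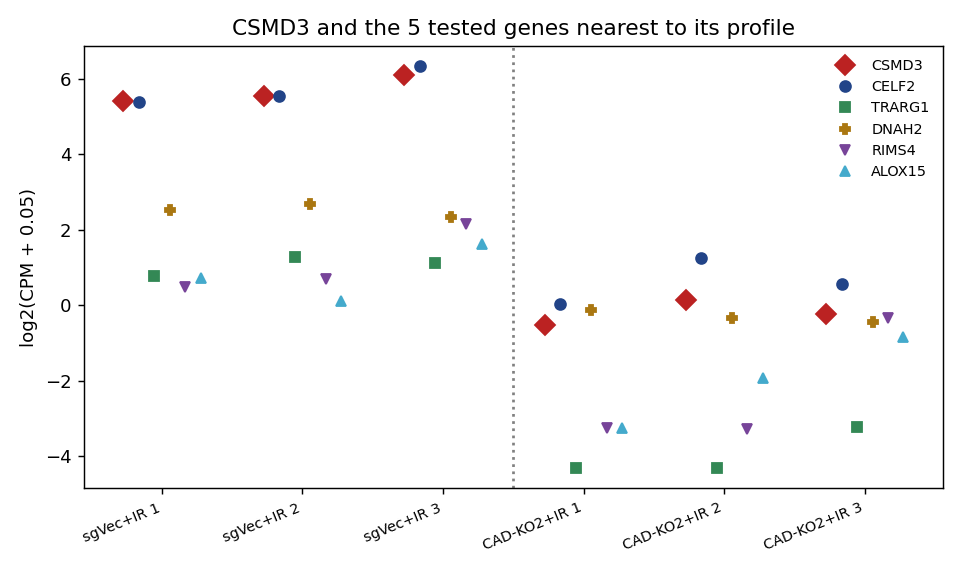
Level of CSMD3 and the 5 tested genes nearest to its profile in each of the 6 libraries, as log2(CPM + 0.05), with points of 1 library set side by side. CSMD3 and CELF2 run together in sgVec+IR, with replicate 3 highest. All 6 genes, which were picked from this same contrast, are lower in every CAD-KO2+IR library.

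The genes around each member were examined next. CSMD3 had no close tested neighbour: none lay nearer than SYBU, a linker of cargo to kinesin, at 2531 kb on the side of lower coordinates, and EIF3H, a translation initiation factor subunit, at 3205 kb on the other. SYBU had 19.3 ± 3.87 CPM in sgVec+IR and 18.7 ± 1.59 CPM in the knockout (SD, n = 3 each). Its log2 fold change was −0.05 (SE 0.219). EIF3H had 440.0 ± 64.4 CPM and 444.8 ± 69.4 CPM (SD, n = 3 each) and was at 0.02 (SE 0.177). Both differences were smaller than their SE.

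Within 5 Mb of CSMD3, 13 genes were tested and edgeR called 0 of them, as did DESeq2, with 1 at an unadjusted p under 0.05 in edgeR (2.85% of all tested genes). Their median log2 fold change was −0.05, against −0.01 over all tested genes, with 5 above 0 and 8 below. They ran from −1.25 in TMEM74, an autophagy-related membrane protein (SE 0.718), to 0.47 in EXT1, a heparan sulfate polymerase (SE 0.196). SAMD12 was at −0.26 (SE 0.239). The adjusted p of TMEM74, EXT1 and SAMD12 was 0.9999 in edgeR.

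Around CSMD2, 98 genes were tested and 0 were called by edgeR (2 at an unadjusted p under 0.05) or by DESeq2. Their median log2 fold change was 0.02, with 52 above 0 and 46 below. On the side of lower coordinates the nearest was ZSCAN20, a zinc finger protein at 17.5 kb (−0.04, SE 0.400). NKAIN1, a partner of the sodium pump (−0.84, SE 0.248), SPOCD1, a factor of piRNA-directed DNA methylation (−0.81, SE 0.262), and CLSPN, the checkpoint mediator claspin (0.38, SE 0.172), had the smallest p and an adjusted p of 0.9999 in edgeR. Without the 2 libraries that stood apart, NKAIN1 and SPOCD1 were called lower, 2.04% of the 98 against 3.37% of all genes tested in that fit.

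Around CSMD1, 16 genes were tested, 8 above 0 and 8 below, and edgeR called 0 (1 at an unadjusted p under 0.05), as did DESeq2. Their median log2 fold change was 0.01. MYOM2, a sarcomere protein 770 kb away, was nearest on the side of lower coordinates (−0.86, SE 0.409) and MCPH1, of chromosome condensation and DNA damage response, was nearest on the other at 1412 kb (0.23, SE 0.235). ARHGEF10, a guanine nucleotide exchange factor (0.84, SE 0.308), and ZNF596, a zinc finger protein (−0.82, SE 0.501), had an adjusted p of 0.9999 in edgeR, as did MYOM2.

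**Figure D3:**
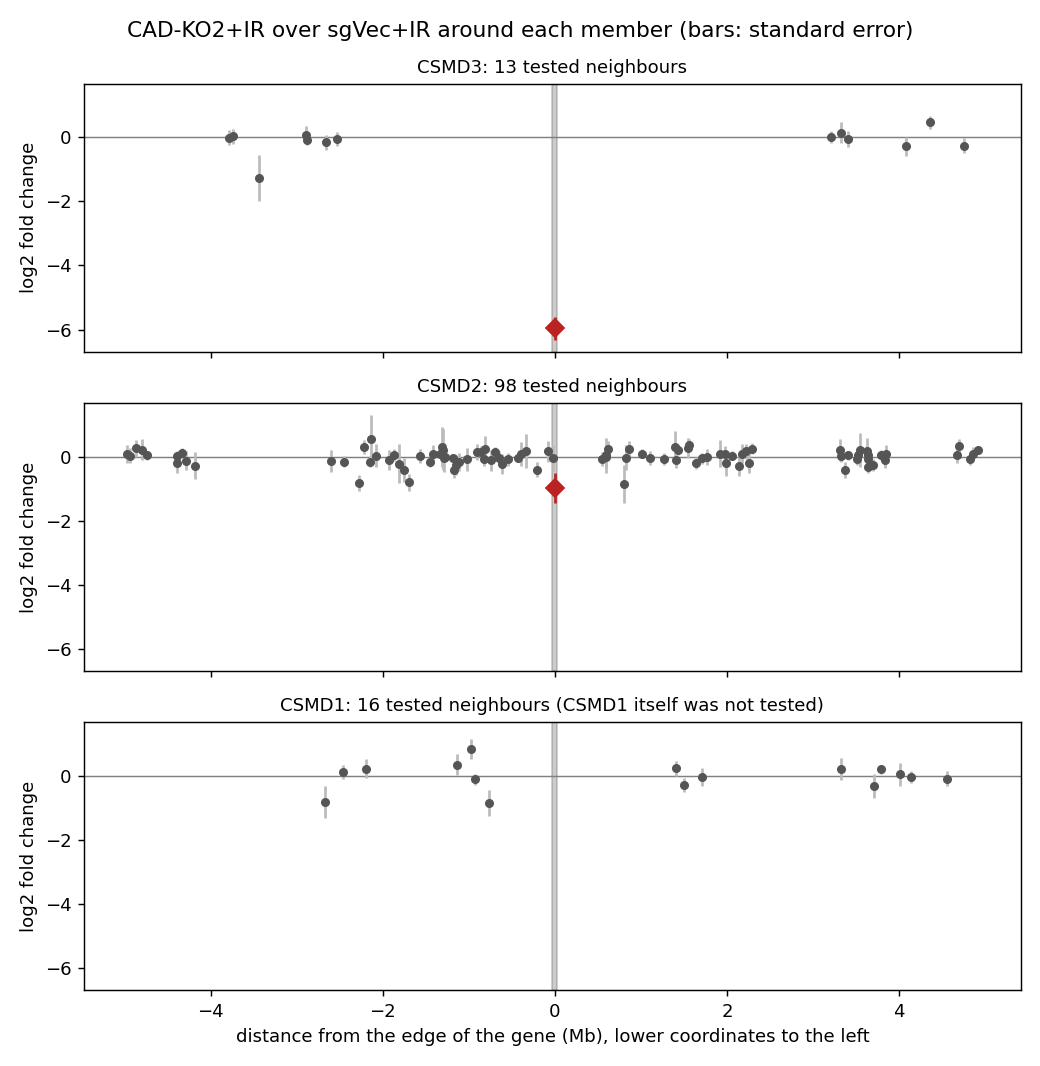
Log2 fold change with its SE of each tested gene within 5 Mb of a member, against its distance in Mb from the nearer edge of that member, with the member itself as a red diamond where it was tested. CSMD3 at −5.96 stands alone among 13 neighbours that lie between −1.25 and 0.47, and CSMD2 at −0.98 lies just below its 98 neighbours.

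Genes annotated within the spans of the members could add reads if the counting ignored strand, which the sources used here do not state. GENCODE lists 3 such genes over CSMD3, all on the other strand (the pseudogenes AC107890.1 and RPL30P16, and the microRNA gene MIR2053), and 0 of them have a row in the table. For CSMD1 there are 5, with 0 in the table, and for CSMD2 there are 4, with 1 in the table. That gene, HMGB4, had 0 counts in all 6 libraries.

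All 3 members are very long genes. Of 19823 genes with a gene model, CSMD1 ranked 6 by span, CSMD3 41 and CSMD2 187. The 154 other tested genes that span at least 500 kb were divided evenly, with 77 above 0 and 77 below and a median log2 fold change of −0.00309. edgeR called 2 of them (1.30%, against 0.0309% of all tested genes), both lower in CAD-KO2+IR. These were CELF2 (538 kb) and TENM3, a teneurin of cell adhesion between neurons. TENM3 had 678, 515 and 580 counts in sgVec+IR and 146, 150 and 137 in CAD-KO2+IR. Its log2 fold change was −2.32 (SE 0.187, adjusted p = 0.0283 in edgeR), with 39.2 ± 3.44 CPM in sgVec+IR and 7.87 ± 0.0633 CPM in CAD-KO2+IR (SD, n = 3 each).

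The groups did not overlap in CPM for 24.0% of these long genes (22 lower and 15 higher in CAD-KO2+IR), against 10.2% of all tested genes. DESeq2 called 3.90% of them against 0.364% of all. The long genes were also low, with a median of 8.71 CPM in sgVec+IR against 31.7 CPM over all tested genes, and the part of level in these shares was not tested. With 1 library left out edgeR called 0 of them (12 to 15 at an unadjusted p under 0.05), or 5 without sgVec+IR replicate 3. Without the 2 libraries that stood apart, it called 11 higher and 9 lower of 152 long genes (13.2%), against 3.37% of all.

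**Figure D4:**
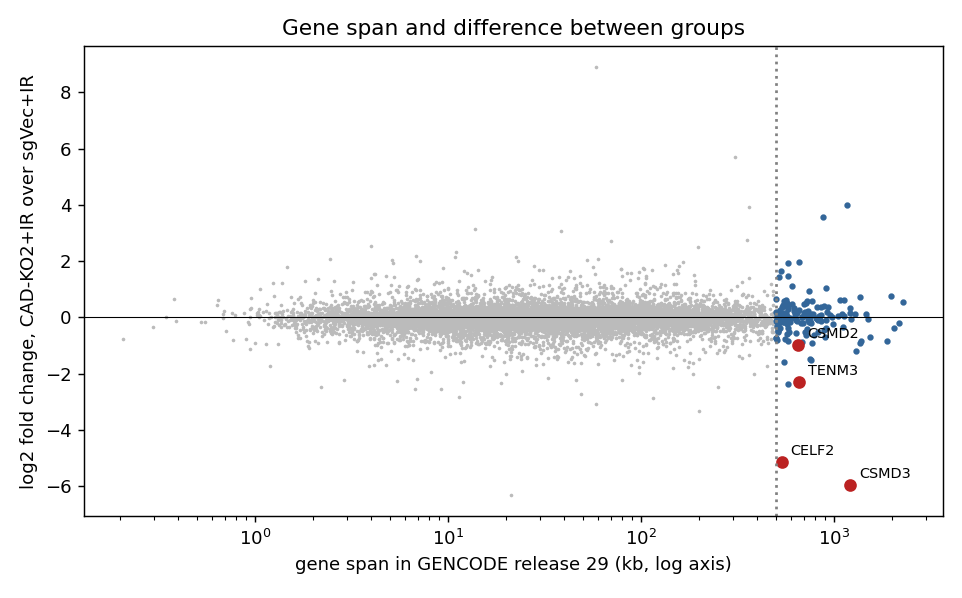
Log2 fold change (CAD-KO2+IR over sgVec+IR) of the tested genes that have a gene model against gene span in kb on a log axis, with genes of at least 500 kb in blue and CSMD2, TENM3, CELF2 and CSMD3 in red. The long genes lie on both sides of 0 with a median of −0.00309, and CSMD3 and CELF2 are the lowest of them.

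The closest relatives of the family by domain makeup are SEZ6, SEZ6L and SEZ6L2, seizure-related membrane proteins with CUB and Sushi domains. SEZ6L2 was the only 1 of them with a plain signal, at 1426, 1344 and 372 counts in sgVec+IR and 1322, 763 and 1243 in CAD-KO2+IR. sgVec+IR replicate 3 was the lowest and CAD-KO2+IR replicate 2 the next lowest, and the groups overlapped. The means were 68.5 ± 36.7 CPM in sgVec+IR and 60.9 ± 17.9 CPM in CAD-KO2+IR (SD, n = 3 each). The log2 fold change was −0.17 (SE 0.471, adjusted p = 0.9999 in edgeR). Leaving out 1 library at a time moved it between −0.56 and 0.10. The overlap came from sgVec+IR replicate 3, at 26.2 CPM against 40.2 to 71.6 CPM in CAD-KO2+IR. The other sgVec+IR libraries were at 87.2 and 92.0 CPM. Without both libraries that stood apart, a choice made after seeing the data, SEZ6L2 averaged 89.6 CPM in sgVec+IR and 71.2 CPM in CAD-KO2+IR. The log2 fold change was then −0.33 (SE 0.0736), which passed an adjusted p of 0.05 in edgeR but was under 1.5-fold. SEZ6 had 3 counts in sgVec+IR replicate 1, 1 in CAD-KO2+IR replicate 1 and 0 elsewhere, and SEZ6L had 0 in all 6 libraries.

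Of 41 other genes with CUB domains, 32 were tested and edgeR called 0, as did DESeq2. In edgeR 3 were at an unadjusted p under 0.05 (2.85% of all tested genes). Their median log2 fold change was −0.10, with 9 above 0 and 23 below, against −0.01 for all tested genes with 6214 above and 6711 below. NRP1, a co-receptor for semaphorins and VEGF, had 2.46 ± 1.63 CPM in sgVec+IR and 9.02 ± 0.497 CPM in CAD-KO2+IR (SD, n = 3 each). Its log2 fold change was 1.84 (SE 0.409, adjusted p = 0.847 in edgeR). NETO2, an auxiliary subunit of kainate receptors, was at 0.88 (SE 0.294), and MASP2, a protease of the lectin pathway of complement, was at 0.65 (SE 0.259), each with an adjusted p of 0.9999 in edgeR. Without the 2 libraries that stood apart, the median of the list was −0.22 and 2 of 31 were called (6.45%, against 3.37% of all genes tested in that fit), both higher, as 1.06% of all genes were: NRP1 at 1.47 and PDGFC, a growth factor, at 0.95. PDGFC was named after its values were seen.

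Of 49 other genes with Sushi domains, 8 of which are also in the CUB list, 21 were tested and a further 21 had at most 3 counts in every library. edgeR called 0, with 4 at an unadjusted p under 0.05 (2.85% of all tested genes). DESeq2 called 1, VCAN, which encodes the matrix proteoglycan versican. VCAN had 165.0 ± 16.2 CPM in sgVec+IR and 300.8 ± 43.0 CPM in CAD-KO2+IR (SD, n = 3 each), a log2 fold change of 0.87 (SE 0.167, adjusted p = 0.550 in edgeR), and its groups did not overlap. CR2, the complement receptor CD21, was at 0.69 (SE 0.243, adjusted p = 0.9999 in edgeR), with 10.7 ± 0.723 CPM against 6.63 ± 1.40 CPM (SD, n = 3 each). The list's median was 0.03, with 13 above 0 and 8 below. Without the 2 libraries that stood apart, 3 were called (14.3%, against 3.37% of all genes tested in that fit), all higher, as 1.06% of all genes were: VCAN, CR2 and SRPX2, a secreted Sushi protein that was named after its values were seen.

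Of the genes of the complement cascade, which many Sushi proteins regulate, 27 of 43 did not pass the filter on low counts. Of the 43, 15 of which are also in the Sushi list, 16 were tested and a further 16 had at most 3 counts in every library. edgeR called 0, as did DESeq2, with 4 at an unadjusted p under 0.05 in edgeR (2.85% of all tested genes). The median log2 fold change was −0.06, with 7 above 0 and 9 below. ITGB2 and ITGAM, the chains of complement receptor 3, had the smallest p. ITGB2 had 20, 17 and 22 counts in sgVec+IR and 5, 2 and 8 in CAD-KO2+IR, with a log2 fold change of −2.23 (SE 0.596). ITGAM had 48, 74 and 29 counts in sgVec+IR and 17, 24 and 23 in CAD-KO2+IR, with a log2 fold change of −1.52 (SE 0.465). Their adjusted p was 0.9999 in edgeR. Without the 2 libraries that stood apart, 5 of 17 were called (29.4%, against 3.37% of all genes tested in that fit): CR2 higher, and ITGB2, ITGAM, ITGAX, a related integrin chain, and C4B lower. C4B shares reads with a near-identical copy and is uncertain, and C4B and ITGAX were named after their values were seen. C4B was not among the 16 genes tested before these 2 libraries were left out. ITGB2, with at most 8 counts in a CAD-KO2+IR library, passed the filter on low counts through sgVec+IR alone. Nothing is therefore read from the share of 29.4%.

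Markers of the labelled cell type and of others were read beside these results. In bulk RNA, fewer cells of a type and less RNA per cell cannot be told apart. The 12 epithelial markers summed to 2175 to 4275 CPM in sgVec+IR and 2893 to 4134 CPM with the guide, with KRT8, KRT18, KRT19 and EPCAM well expressed, while VIL1 had at most 3 counts, LGALS4 at most 5 and CDH17 at most 15 in any library. Since CSMD genes are known from brain, 18 neural markers were read: they summed to 111.3 to 148.1 CPM in sgVec+IR and 93.9 to 104.8 CPM with the guide, mostly from SYT1, and STMN2, GAP43, NEFL and NEFM were at 0 counts in all 6 libraries. The neural sum did not overlap between the groups and was the higher in sgVec+IR. This came from SYT1, at 68.9 to 98.5 CPM in sgVec+IR and 49.3 to 64.4 CPM with the guide, and the other 17 markers overlapped, at 42.4 to 49.6 CPM and 40.4 to 44.7 CPM. The part of these markers in the result was not tested. The 8 fibroblast markers summed to 12.3 to 48.9 CPM in sgVec+IR and 25.9 to 39.9 CPM with the guide, with DCN and LUM at 0. COL1A1 gave most of this sum, at 10.9 to 47.8 CPM in sgVec+IR and 25.5 to 38.7 CPM with the guide. The 6 leukocyte markers summed to 2.51 to 3.53 CPM in sgVec+IR and 2.43 to 2.68 CPM with the guide, with CD3E at 0. LCP1 gave most of this sum, at 1.57 to 3.53 CPM in sgVec+IR and 1.46 to 2.21 CPM with the guide. The 4 endothelial markers summed to 4.16 to 6.07 CPM in sgVec+IR and at most 2.22 CPM with the guide. The endothelial sum did not overlap either and was also the higher in sgVec+IR. Most of it was VWF, at 2.45 to 5.15 CPM in sgVec+IR and 0.685 to 1.42 CPM with the guide. PECAM1 and KDR overlapped between the groups, and CDH5 was at most 0.917 CPM in sgVec+IR and at 0 with the guide. The part of the endothelial markers in the result was not tested.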

How the data were processed

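RNA-seq was analysed in 6 libraries of irradiated HCT116 cells, 3 per group. The authors cleaned reads with fastp and deposited raw counts per gene made with featureCounts, and used DESeq2 in the paper. The aligner, annotation and strand setting are not given in the sources used here. The submitters' processing notes name mm10, whereas the table holds human Ensembl identifiers, so only gene identity links counts to positions. Columns were matched to samples by title, and the guide and vector names come from the paper.

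edgeR's filterByExpr (minimum count 10, minimum total 15) kept 12925 of 20020 genes. TMM scaling and edgeR's quasi-likelihood test (legacy set to FALSE) with Benjamini-Hochberg adjustment were used in R 4.3.3 with edgeR 4.0.16. Called genes had an adjusted p under 0.05 and differed 1.5-fold or more. Log2 fold changes are the values fitted by edgeR. Positions, exon lengths and transcripts came from GENCODE release 29 on GRCh38, where 19823 identifiers matched with the version ignored (12913 of those tested). RPKM is CPM per kilobase of merged exons.

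Alternatives were DESeq2 1.42.0, RLE scaling, no filter on low counts, the replicate number as a block, and leaving out each library in turn. Leaving out CAD-KO2+IR replicate 2 and sgVec+IR replicate 3 together was chosen after seeing the data. The code was tested on simulated data with known changes. Totals ran from 14032994 to 19574144 counts. Reads carry no molecular identifiers, so intervals and limits cover counting error only.

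The members, lists and tests were chosen with earlier results of these data known. Genes were named by a rule: the members, DFFB, the SEZ6 genes, the 5 tested genes nearest to the CSMD3 profile, the nearest tested gene on each side of a member, and up to 5 called genes of a list or, with none called, up to 3 with the smallest p. Not all genes covered by this rule are reported here.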

Additional observations from a re-analysis of the deposited data

How the results depend on the processing

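The log2 fold change of CSMD3 and of CSMD2 kept its sign and stayed within the spread between libraries under all 11 alternatives: leaving out 1 library at a time gave −6.18 to −5.73 and −1.20 to −0.79. Whether the replicate numbers pair the samples could not be decided here. Deviations of same-numbered libraries from their group means correlated at 0.468, −0.545 and −0.379. Not every library correlated best with its own number, since CAD-KO2+IR replicate 2 correlated best with sgVec+IR replicate 3, at 0.552. Those are the 2 libraries that stood apart, and deviations sum to 0 within each group, so these correlations depend on one another. The block gave −5.95 for CSMD3 and −0.97 for CSMD2.

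The numbers of genes called by edgeR were less steady, and the cause was not tested. Over all genes, 1 was called higher and 3 lower. DESeq2 gave 22 and 25, and the block 0 and 0 (62 and 82 at an unadjusted p under 0.05 and the same fold). Leaving out 1 library gave 0 to 11 and 0 to 11, with both values of 11 without sgVec+IR replicate 3. Without any 1 CAD-KO2+IR library there were 0 calls in either direction (65 to 82 genes higher and 90 to 123 lower at an unadjusted p under 0.05 and the same fold). Leaving out both libraries that stood apart gave 139 and 301. Of the long genes, 2 were called, 6 by DESeq2, 0 with the block (13 at an unadjusted p under 0.05), 0 to 5 without 1 library, the 5 without sgVec+IR replicate 3, and 20 without both. The CUB list went from 0 to 2, the Sushi list from 0 to 1 by DESeq2 and 3, the complement list from 0 to 5 and the neighbours of CSMD2 from 0 to 2 when both were left out. RLE scaling and no filter on low counts left these counts within 1.5 times. At this depth CSMD1 is known only to lie below its limits, and the difference in CSMD2 rests on 48 against 78 counts.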
